A study of Mus musculus with 9 samples.

Results

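The collagen genes measured here were 42 of the 30142 genes on the arrays. A gene was taken as a member where the annotation gave a transcript cluster, the array's unit for 1 transcript region, a single symbol made of Col, a number, the letter a and a number. Each of the 42 had 1 such cluster. By the class of the protein there were 11 fibrillar, 8 basement membrane and 9 fibril-associated collagens, and 14 others. Col7a1, the anchoring fibril collagen, and Col6a4 lay in clusters shared with a second symbol and were not members, and no cluster was named for Col21a1. The signal of 27 members lay at or above the median of all clusters, and that of the other 15 lay below it. Those 15 were kept, and no detection call was used.

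RNA came from neck skin of male C57BL/6 mice, 6 to 8 weeks old, with 3 arrays for control skin described as healthy, 3 for oxazolone and 3 for urushiol. Oxazolone is a synthetic contact allergen, and urushiol is the allergenic oil of poison ivy. Mice were sensitised with 2.0% allergen on the shaved abdomen and, after 5 days, challenged on the shaved nape with 40 µl of 0.5% allergen in acetone. Challenges numbered 5 and ended on day 8, and the skin was collected 4 hours afterwards. The labels do not say whether control mice were shaved or given acetone, so these steps and the allergens cannot be told apart. The labels call the replicates biological, and do not say whether RNA of several mice was pooled.

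Collagens are extracellular proteins of 3 chains wound into a triple helix. Fibrillar collagens, mainly types I and III in the dermis, form the load-bearing fibrils, and fibril-associated collagens sit on their surface. Type IV collagen forms the sheet of basement membranes, under the epidermis and around vessels, muscle fibres and fat cells, while other members anchor cells to these structures or form finer filaments. Dermal fibroblasts make most of the fibrillar collagen of skin.

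Values are log2 expression. A difference between groups, of n = 3 arrays each, is in log2 units and is followed by ± its standard error. A gene was called higher or lower where the adjusted p of limma, a linear model fitted to all 30142 genes with Benjamini-Hochberg adjustment, was under 0.05. The values reach 19.93, past the 16 of a 16-bit scanner, by a step that no source used here describes, so a log2 difference may not equal the log2 ratio of RNA amounts. Control array 3 stood apart: its correlation over genes was 0.979 with control array 1 and 0.978 with control array 2, while those arrays had a correlation of 0.995 between them. Its mean over 7 hair follicle markers was 12.51, against 6.02 and 6.27 on the other controls and 10.41 to 14.19 on challenged arrays. Collagen results that turned on this array are given with and without it. In whole skin, fewer cells of a type and less RNA per cell cannot be told apart.

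Sequence just upstream of the genes is shown for members of the classes that held most calls. The 250 bases before the RefSeq start site (GRCm38.p6, strand of the gene, 5′ to 3′) were present for 33 of the 42 members, in 36 windows. They are printed for Col1a2, the called fibrillar gene that had a window, for Col3a1, its partner in dermal fibrils, which was not called, and for the called basement membrane genes Col4a5, Col4a6 and Col15a1. Capitals mark 3 motifs searched on both strands: the CCAAT box, the letters of an Sp1 site, GGGCGG, which read as CCGCCC on the other strand, and the TATA box in the form TATAAA.
Col1a2, chr6:4505368-4505617 (+): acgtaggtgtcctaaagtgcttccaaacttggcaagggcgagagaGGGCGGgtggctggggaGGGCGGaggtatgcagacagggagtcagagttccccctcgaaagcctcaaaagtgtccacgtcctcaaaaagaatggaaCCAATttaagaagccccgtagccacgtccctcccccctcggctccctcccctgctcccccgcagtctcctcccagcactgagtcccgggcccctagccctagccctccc
Col3a1, chr1:45311288-45311537 (+): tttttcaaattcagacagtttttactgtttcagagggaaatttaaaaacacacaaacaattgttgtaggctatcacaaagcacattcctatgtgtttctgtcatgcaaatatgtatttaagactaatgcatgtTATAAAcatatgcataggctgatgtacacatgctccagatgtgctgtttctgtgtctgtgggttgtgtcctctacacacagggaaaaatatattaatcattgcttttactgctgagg
Col4a5, chrX:141475169-141475418 (+): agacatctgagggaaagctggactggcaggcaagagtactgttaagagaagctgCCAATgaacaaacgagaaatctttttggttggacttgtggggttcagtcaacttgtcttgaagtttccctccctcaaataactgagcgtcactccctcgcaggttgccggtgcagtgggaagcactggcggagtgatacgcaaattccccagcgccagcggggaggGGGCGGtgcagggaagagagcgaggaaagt
Col4a6, chrX:141474077-141474326 (-): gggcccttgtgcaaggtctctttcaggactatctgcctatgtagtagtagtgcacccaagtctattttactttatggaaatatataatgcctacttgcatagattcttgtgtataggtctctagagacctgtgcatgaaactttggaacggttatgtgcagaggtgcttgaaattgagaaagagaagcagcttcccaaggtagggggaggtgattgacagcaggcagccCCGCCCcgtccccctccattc
Col15a1, chr4:47207762-47208011 (+): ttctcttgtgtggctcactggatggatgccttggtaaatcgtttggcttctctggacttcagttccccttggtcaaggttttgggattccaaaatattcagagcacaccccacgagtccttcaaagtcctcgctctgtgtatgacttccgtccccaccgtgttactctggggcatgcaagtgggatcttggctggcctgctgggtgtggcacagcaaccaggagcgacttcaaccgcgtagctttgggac

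The Col1a2 window held 1 CCAAT, whose first base was at -109 from the start site, and 2 matches to GGGCGG. The Col3a1 window held 1 TATAAA and neither other motif. Col4a5 and Col4a6 lie head to head on opposite strands of chromosome X, with start sites 1343 bases apart; the Col4a5 window had 1 CCAAT and 1 GGGCGG, and the Col4a6 window had 1 GGGCGG. None of these letter strings was present in the Col15a1 window. No matches of different motifs overlapped in the printed windows. GGGCGG was present in 20 of the 36 member windows (55.6%) and in 32.7% of all 32851 windows of this length, CCAAT in 11 (30.6%) and 33.8%, and TATAAA in 5 (13.9%) and 12.4%. A match is a string of letters and not a measured binding site.

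Most collagen genes did not pass the test in either allergic skin, and those that did were mainly genes of type I, type IV and type XV collagen, which were lower, and Col12a1, which was higher. In oxazolone skin 7 of 42 members were lower and 1 was higher, where 6.92% of all genes were lower, 9.63% higher and 16.6% called in either direction. In urushiol skin 6 were lower and 1 was higher, against 6.43% and 9.96% of all genes, 16.4% in either direction. As a share of members, the lower calls were 16.7% and 14.3% and the higher calls 2.38% in each. Col1a1, Col1a2, Col4a3, Col4a5, Col4a6 and Col15a1 were lower with both allergens (6 of 42, against 5.51% of all genes), Col12a1 was higher with both (1 of 42, against 7.06%), Col6a6 was called lower with oxazolone, and 34 members were called with neither. The allergens were set against the same 3 control arrays, so their calls are not independent. Over all 42 members the median log2 difference was -0.02 with oxazolone and -0.05 with urushiol, and over all genes 0.06 and 0.04. In a fit without control array 3 the calls were 7 lower and 3 higher with oxazolone, against 10.8% and 15.8% of all genes, and 7 lower and 2 higher with urushiol, against 10.2% and 15.1%. The arrays of the groups did not overlap for 10 lower and 2 higher members with oxazolone, against 11.5% and 21.3% of all genes, and for 9 and 3 members with urushiol, against 11.8% and 21.1%.

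**Figure D1:**
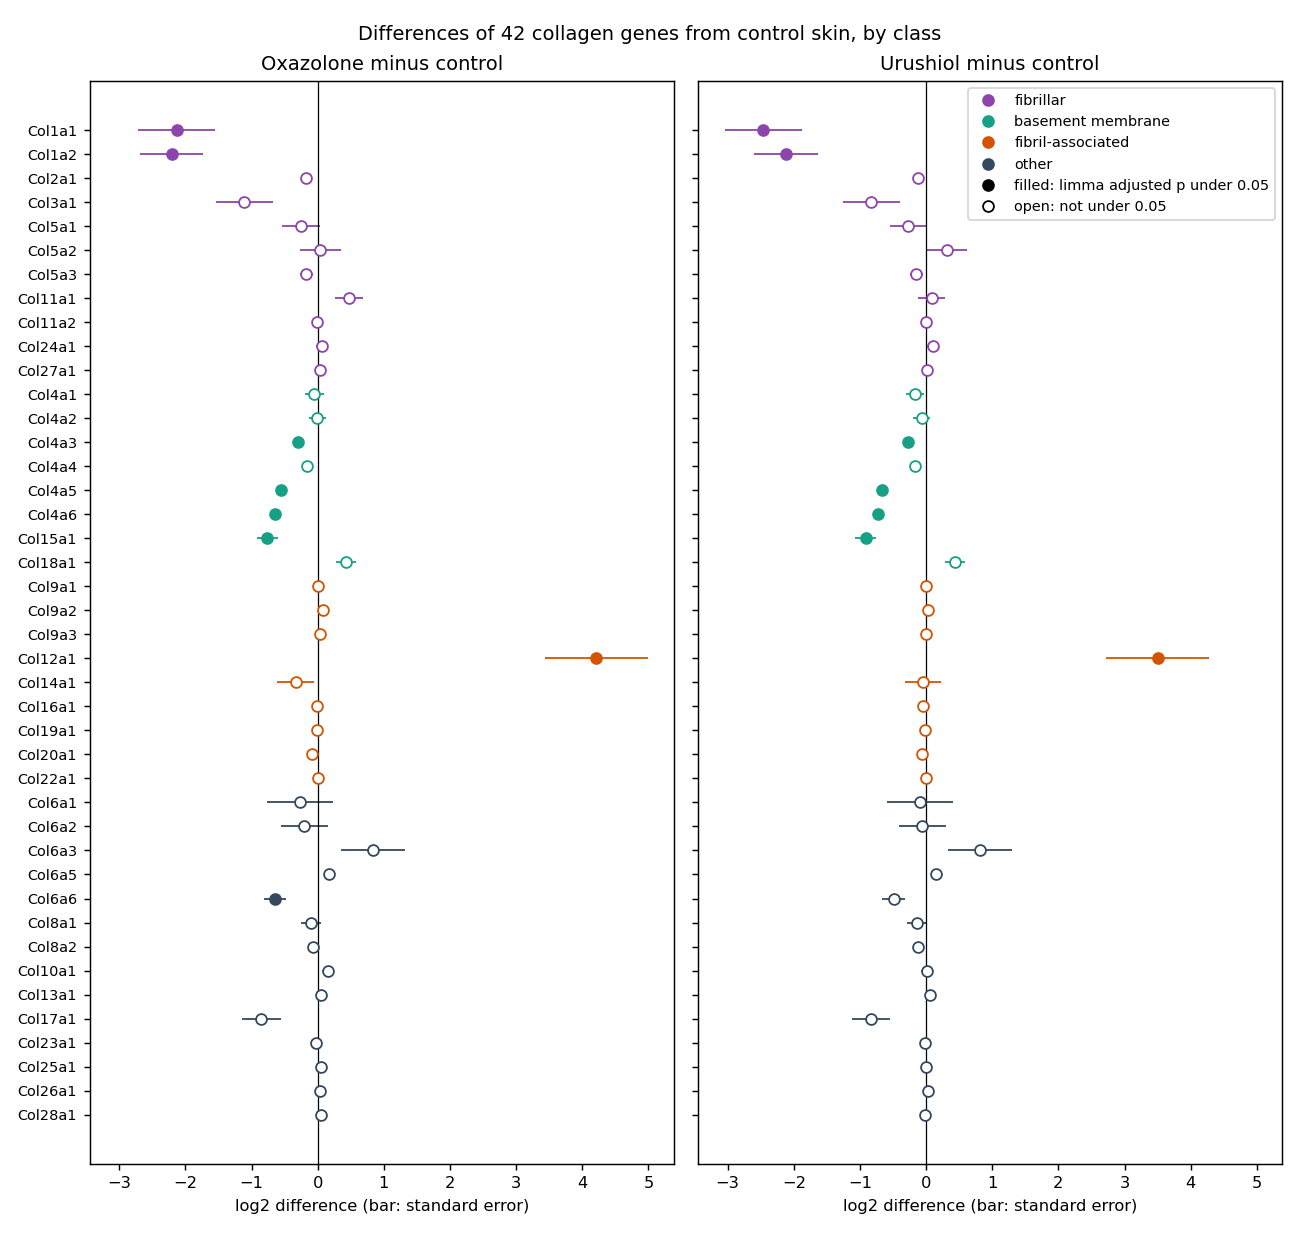
Log2 difference from control skin of each of the 42 collagen genes (x axis, log2 units; bars, standard error; n = 3 arrays a group), with oxazolone in the left panel and urushiol in the right, coloured by class. Filled points had a limma adjusted p under 0.05: Col12a1 stands at 4.21 and 3.50, Col1a1 and Col1a2 lie below -2 in both panels, and most other members lie near 0.

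Among the 11 fibrillar collagens, both chains of type I collagen, the main protein of dermal fibrils, were lower with both allergens. The other 9 members did not pass the test. The lower calls were 18.2% of the class, against 6.92% of all genes with oxazolone and 6.43% with urushiol. Col1a1 stood at 15.89, 15.95 and 16.20 in control skin, 14.46, 13.18 and 14.00 in oxazolone skin and 12.44, 14.78 and 13.43 in urushiol skin. All 6 challenged arrays lay below all 3 controls, and they varied more, with an SD (n = 3) of 0.648 in oxazolone and 1.18 in urushiol skin against 0.164 in control skin. The difference was -2.13 ± 0.58 with oxazolone (limma adjusted p = 0.0484) and -2.46 ± 0.58 with urushiol (adjusted p = 0.032). The Col1a1 call did not stand on every set of arrays. With oxazolone it was lost when any control array, any oxazolone array or urushiol array 3 was left out, at limma adjusted p 0.0767 to 0.133. With urushiol the loss came with the removal of any control array, of oxazolone array 3, or of urushiol array 1 or 3, at adjusted p 0.0537 to 0.0922. The estimates stayed between -2.42 and -1.78 and between -3.08 and -1.91.

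Col1a2, the second chain of type I collagen, stood at 16.34, 16.20 and 16.28 in control skin. It stood at 14.70, 13.24 and 14.25 in oxazolone skin and at 13.49, 15.07 and 13.90 in urushiol skin. The groups did not overlap, and oxazolone array 2 and urushiol array 1 were lowest in their groups, as they were for Col1a1. The difference was -2.21 ± 0.48 with oxazolone (limma adjusted p = 0.0249) and -2.12 ± 0.48 with urushiol (adjusted p = 0.028). With oxazolone the adjusted p rose to between 0.0611 and 0.0783 when control array 1 or 2, or oxazolone array 2 or 3, was left out. With urushiol it rose to between 0.0511 and 0.0898 when control array 1 or 2, oxazolone array 3, or urushiol array 1 or 3 was left out. With the replicate number as a block in the fit of all 9 arrays, the adjusted p of Col1a2 was 0.0559 and 0.0615, and that of Col1a1 0.0852 and 0.0636, in the order oxazolone and urushiol.

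Col3a1, the type III collagen that is laid down with type I, stood at 16.05, 15.52 and 15.77 in control skin. In oxazolone skin it stood at 15.17, 13.97 and 14.87, below all controls, and in urushiol skin at 14.34, 15.76 and 14.76, where array 2 lay among the controls. The difference of -1.11 ± 0.43 with oxazolone (limma adjusted p = 0.119) and -0.83 ± 0.43 with urushiol (adjusted p = 0.239) did not pass the test. Col5a1, a type V chain that limits fibril width, stood at 7.51, 7.37 and 7.46 in control, 7.61, 6.74 and 7.23 in oxazolone and 6.81, 7.73 and 7.0 in urushiol skin. Its groups overlapped, with differences of -0.25 ± 0.28 and -0.27 ± 0.28. The remaining 7 fibrillar members differed from control by -0.17 to 0.47 with oxazolone and -0.15 to 0.31 with urushiol. Col11a1, named after its values were seen, had the highest of these with oxazolone. Its difference of 0.47 ± 0.21 with oxazolone had a limma adjusted p of 0.16, and 0.0323 without control array 3, where it was 0.67.

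**Figure D2:**
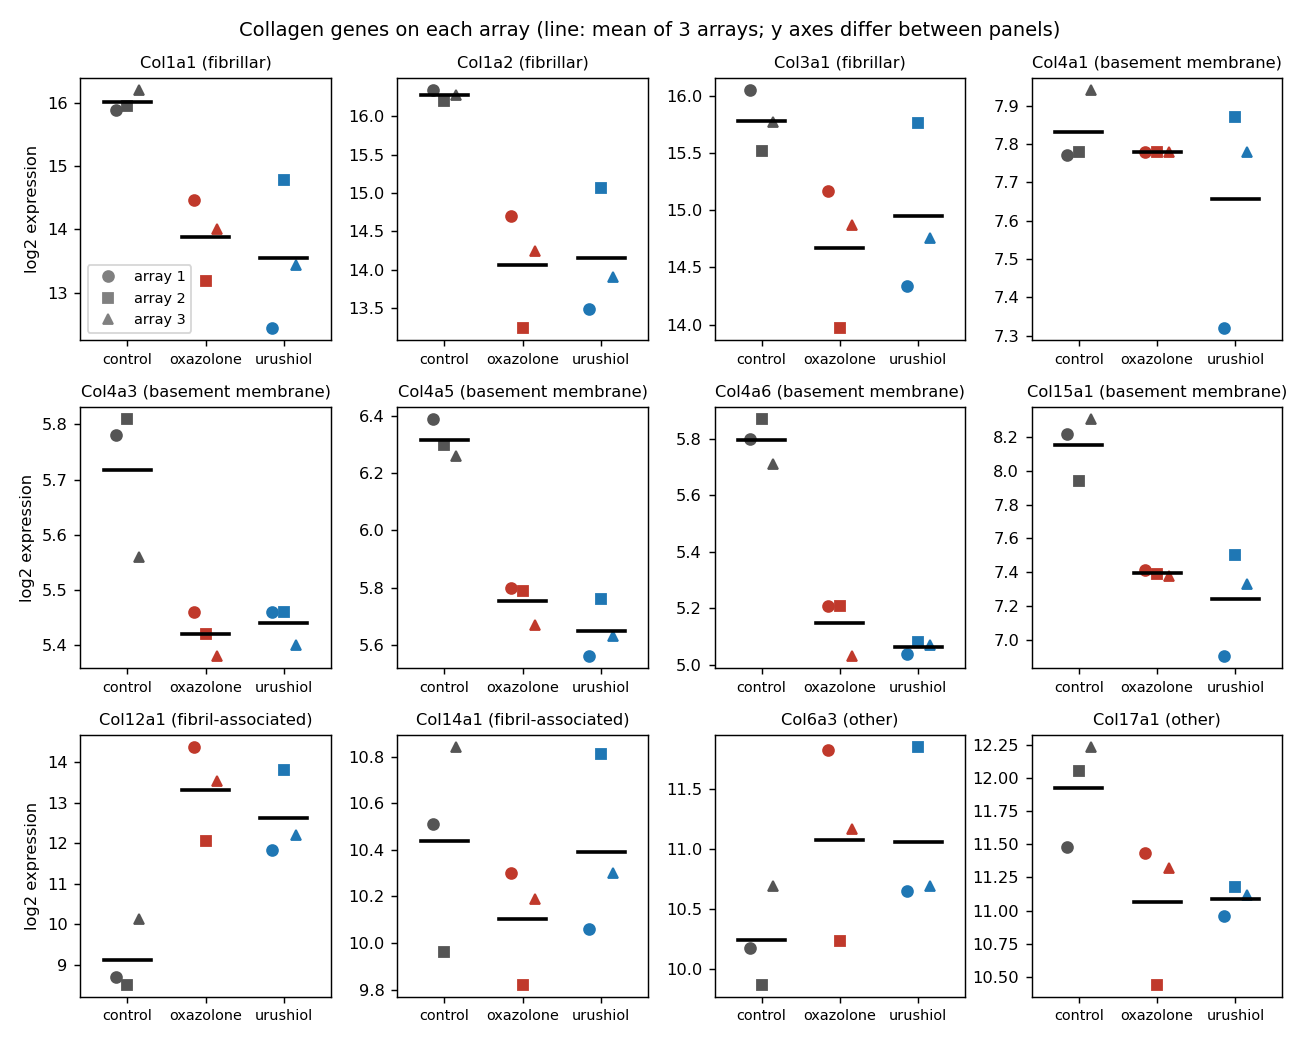
Log2 expression (y axis, a range of its own in each panel) of 12 collagen genes on each of the 9 arrays, by group; symbols mark the array number and lines the mean of 3 arrays. Col1a1, Col1a2, Col4a5, Col4a6 and Col15a1 lie lower on all 6 challenged arrays than on any control, Col12a1 lies higher, and Col4a1 and Col14a1 overlap between groups.

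Of the 8 basement membrane collagens, 4 (50%) were lower with each allergen, against 6.92% of all genes with oxazolone and 6.43% with urushiol. The estimate was below 0 for 7 of 8. The median difference of this class was -0.23 with oxazolone and -0.22 with urushiol, beside 0.06 and 0.04 for all genes. The common chains of type IV collagen, found in nearly every basement membrane, did not pass the test. Col4a1 stood at 7.77, 7.78 and 7.94 in control skin, at 7.78 on each oxazolone array, and at 7.32, 7.87 and 7.78 in urushiol skin. Col4a2 stood at 7.56, 7.58 and 7.62 in control, 7.58 on each oxazolone array and 7.21, 7.77 and 7.58 in urushiol skin. The groups overlapped for both genes, and 5 or more of the 9 arrays of each had the same value to 2 decimals. The 95% interval of the difference from control ran from -0.37 to 0.27 for Col4a1 and from -0.30 to 0.29 for Col4a2 with oxazolone, and from -0.49 to 0.15 and -0.36 to 0.23 with urushiol.

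Col4a5 and Col4a6, the head-to-head pair on chromosome X whose chains join in a type IV network found in the epidermal and smooth muscle basement membranes, were lower with both allergens. Col4a5 stood at 6.39, 6.30 and 6.26 in control skin, 5.80, 5.79 and 5.67 in oxazolone skin and 5.56, 5.76 and 5.63 in urushiol skin. Col4a6 stood at 5.80, 5.87 and 5.71 in control, 5.21, 5.21 and 5.03 in oxazolone and 5.04, 5.08 and 5.07 in urushiol skin. For both genes the lowest control lay above the highest challenged array, with little spread within groups. Col4a5 differed by -0.56 ± 0.07 with oxazolone (limma adjusted p = 0.00344) and -0.67 ± 0.07 with urushiol (adjusted p = 0.00184). Col4a6 differed by -0.64 ± 0.06 (adjusted p = 0.00191) and -0.73 ± 0.06 (adjusted p = 0.00118). These calls held in all 9 fits that left out 1 array, for both genes and both allergens, with the highest adjusted p at 0.017 for Col4a5 and 0.0116 for Col4a6. All challenged arrays of Col4a6 lay below 5.60, the median of all clusters, and those of Col4a5 lay near it, at 5.56 to 5.80.

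Col4a3 and Col4a4 are neighbours on chromosome 1 and, with Col4a5, encode the type IV network best known from the kidney. Col4a3 stood at 5.78, 5.81 and 5.56 in control skin, 5.46, 5.42 and 5.38 in oxazolone skin and 5.46, 5.46 and 5.40 in urushiol skin. The groups did not overlap, and control array 3 lay closest to the challenged arrays. These and control array 3 lay below 5.60, the median of all clusters. Col4a3 differed by -0.30 ± 0.07 with oxazolone (limma adjusted p = 0.0307) and -0.28 ± 0.07 with urushiol (adjusted p = 0.0376). With that array left out the differences were -0.38 and -0.35, at adjusted p 0.00151 and 0.00189. Leaving out control array 1 or 2, any oxazolone array, or urushiol array 2 or 3 ended the oxazolone call, at adjusted p up to 0.0958. The urushiol call was lost when any array other than control array 3 was left out, at adjusted p up to 0.112. Col4a4 differed by -0.17 with each allergen, at adjusted p 0.0902 and 0.0941, and at 0.0381 and 0.0392 without control array 3. Both genes were named after their values were seen.

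Types XV and XVIII collagen are carriers of sugar chains at the outer face of basement membranes, and only the first was called. Col15a1, found around muscle fibres, vessels and fat cells, stood at 8.22, 7.94 and 8.31 in control skin. It stood at 7.41, 7.39 and 7.38 in oxazolone skin and at 6.90, 7.50 and 7.33 in urushiol skin, below every control. It differed by -0.76 ± 0.16 with oxazolone (limma adjusted p = 0.0221) and -0.91 ± 0.16 with urushiol (adjusted p = 0.0121). The Col15a1 call held in all 9 fits without 1 array for urushiol, and for oxazolone ended when control array 1 or any oxazolone array was left out, at adjusted p 0.0633 to 0.0745. Col18a1, whose fragment is endostatin, stood at 6.43, 6.44 and 6.89 in control, 7.17, 6.90 and 6.98 in oxazolone and 6.90, 7.24 and 6.93 in urushiol skin. Its challenged arrays all lay above control, with array 3 of the controls close to them. The Col18a1 difference of 0.43 ± 0.15 with oxazolone and 0.44 ± 0.15 with urushiol did not pass the test (limma adjusted p = 0.0981 and 0.0994). Leaving out that array gave 0.58 and 0.59, at adjusted p 0.0178 and 0.0172.

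Col12a1, which encodes type XII collagen, a fibril-associated protein that links collagen fibrils to their surroundings, was the only fibril-associated member called. It stood at 8.70, 8.51 and 10.14 in control skin, 14.37, 12.07 and 13.54 in oxazolone skin and 11.84, 13.80 and 12.21 in urushiol skin. All 6 challenged arrays lay above all controls, and control array 3 was the highest control. The difference was 4.21 ± 0.78 with oxazolone (limma adjusted p = 0.0148) and 3.50 ± 0.78 with urushiol (adjusted p = 0.0262). With that array left out it was 4.72 and 4.01, at adjusted p 0.00785 and 0.0144. The Col12a1 call with oxazolone ended when control array 1 or 2 or oxazolone array 3 was left out, at adjusted p 0.0524 to 0.0572. The urushiol call ended when control array 1 or 2 or any urushiol array was left out, at adjusted p 0.053 to 0.0911, and with the replicate block over 9 arrays, at 0.0545. The estimate was never below 2.91 in these fits. Col14a1, the type XIV collagen of the same subfamily, stood at 10.51, 9.96 and 10.84 in control, 10.30, 9.82 and 10.19 in oxazolone and 10.06, 10.81 and 10.30 in urushiol skin, with overlapping groups. The other 7 fibril-associated members differed from control by -0.09 to 0.08 with oxazolone and -0.06 to 0.03 with urushiol. The 1 higher call was 11.1% of the class, beside 9.63% of all genes with oxazolone and 9.96% with urushiol.

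The 14 other collagens held 1 call. This lower call with oxazolone was 7.14% of the class, beside 6.92% of all genes. Col6a1, a chain of the beaded filaments that surround cells, stood at 10.12, 10.06 and 10.15 in control, 10.49, 8.98 and 10.06 in oxazolone and 9.28, 10.95 and 9.83 in urushiol skin. Its challenged arrays fell on both sides of tightly grouped controls, and the difference was -0.27 ± 0.50 and -0.09 ± 0.50. Col6a6, a rarer type VI chain, stood at 7.10, 6.95 and 6.43 in control skin, 6.37, 6.07 and 6.10 in oxazolone skin and 6.37, 6.37 and 6.27 in urushiol skin. It differed by -0.65 ± 0.17 with oxazolone (limma adjusted p = 0.0443) and -0.49 ± 0.17 with urushiol (adjusted p = 0.0975). Without control array 3, the lowest control, these were -0.84 and -0.69, at adjusted p 0.00217 and 0.0047. The Col6a6 oxazolone call was lost when any other array was left out, at adjusted p 0.0667 to 0.138. Whether Col6a6 differed between the allergens was tested directly, at 0.16 ± 0.17 for urushiol minus oxazolone (adjusted p = 0.999).

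Col17a1, the transmembrane collagen of hemidesmosomes that ties basal keratinocytes to the basement membrane, stood at 11.48, 12.05 and 12.23 in control skin. It stood at 11.43, 10.44 and 11.32 in oxazolone skin and at 10.96, 11.18 and 11.12 in urushiol skin, on every array below the lowest control. The Col17a1 difference of -0.86 ± 0.29 with oxazolone and -0.83 ± 0.29 with urushiol did not pass the test (limma adjusted p = 0.0881 and 0.0992). In the fit without oxazolone array 2 the Col17a1 adjusted p with urushiol was 0.0449. The mean over 6 basal keratinocyte markers ran from 13.12 to 13.44 in control, 13.26 to 13.87 in oxazolone and 13.79 to 13.90 in urushiol skin. Its part in the Col17a1 values was not tested. The remaining 11 members of this class, among them the network collagens and the other transmembrane collagens, differed from control by -0.20 to 0.83 with oxazolone and -0.14 to 0.82 with urushiol. The upper end of both ranges was Col6a3, named after its values were seen, at 0.83 ± 0.49 and 0.82 ± 0.49.

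No collagen gene differed between the allergens by limma at adjusted p under 0.05, and none had an unadjusted p under 0.05. Of all genes 0.0166% were called in that comparison, 0.00664% higher and 0.00995% lower with urushiol, and the unadjusted p was under 0.05 for 1772. Oxazolone and urushiol arrays overlapped for all 42 members, while they did not overlap for 5.35% of all genes that were higher and 4.39% that were lower with urushiol. Urushiol minus oxazolone ran from -0.71 ± 0.78 for Col12a1 to 0.29 ± 0.28 for Col14a1. For the most precise called members the 95% interval of this difference was narrow, from -0.26 to 0.05 for Col4a5 and from -0.24 to 0.06 for Col4a6. On the challenged arrays Col4a5 lay near the median of all clusters and Col4a6 below it, so these intervals describe genes of low signal. For Col1a1 it ran from -1.70 to 1.04 and for Col12a1 from -2.54 to 1.12, which spans 1 log2 unit in either direction.

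Several members ranked the arrays within each allergen group in the same order. In 12 of 42 members (28.6%), oxazolone arrays rose in the order 2, 3, 1 and urushiol arrays in the order 1, 3, 2, against 1.47% of all genes. Among genes at or above the median of clusters these shares were 44.4% (12 of 27) and 2.03%. The 12 were Col1a1, Col1a2, Col3a1, Col5a1, Col5a2, Col18a1, Col12a1, Col14a1, Col6a1, Col6a2, Col6a3 and Col17a1. They include genes lower, higher and not called against control. The order was picked after the values were seen, so the counts describe these 6 arrays and carry no test. The mean over 8 fibroblast markers followed this order, at 11.68, 11.08 and 11.36 in oxazolone skin and 11.32, 11.66 and 11.45 in urushiol skin, though 2 of the 8 markers did so singly. The mean over 6 endothelial markers followed it too, at 8.87, 7.56 and 7.99 and at 8.33, 8.76 and 8.48. These were the only 2 of 9 lists of cell type markers whose means did so. The means of 4 of the 6 lists of collagen-related genes (synthesis, maturation, fibril assembly and receptors) also followed it.

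**Figure D3:**
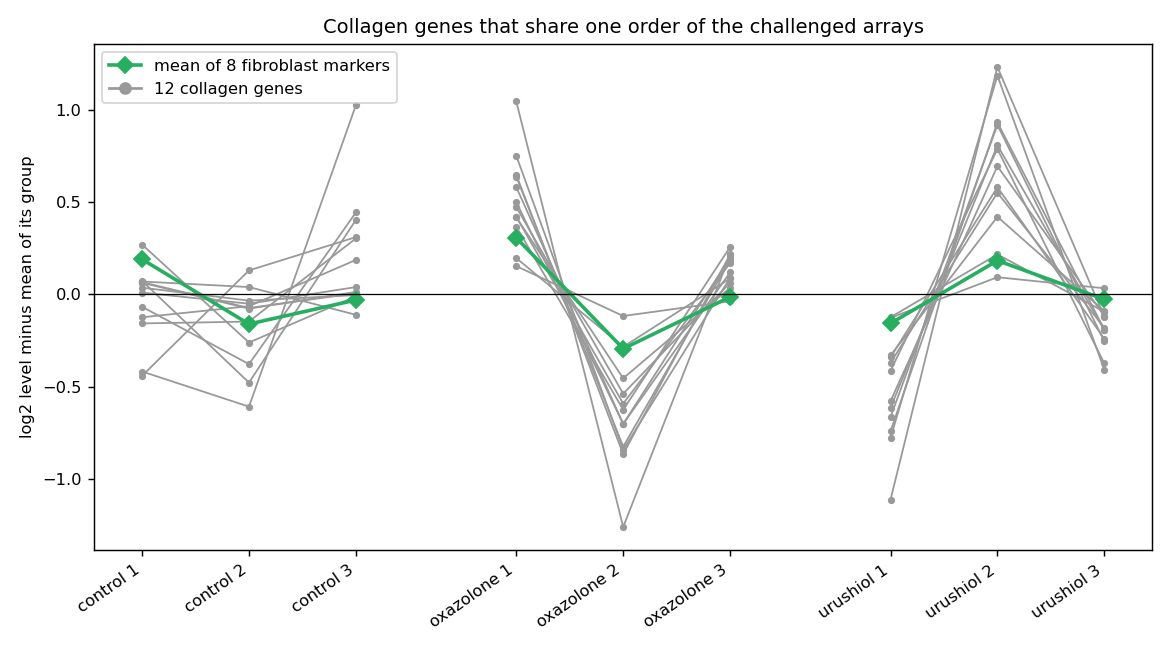
Log2 level minus the mean of its own group (y axis) on each of the 9 arrays (x axis) for the 12 collagen genes that share 1 order of the challenged arrays (grey) and for the mean of 8 fibroblast markers (green). The genes were picked by this order. Oxazolone array 2 and urushiol array 1 are low, and oxazolone array 1 and urushiol array 2 are high. The controls were not used to pick the genes, and the order of the control arrays differs from gene to gene.

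The fibroblast markers in control skin averaged 11.80, 11.45 and 11.58, so their range of 11.45 to 11.80 overlapped that of oxazolone skin, 11.08 to 11.68, and of urushiol skin, 11.32 to 11.66. Of the 8 markers, 2 were lower with oxazolone (Dpt and Dcn) and 1 with urushiol (Dcn), or 2 and 0 without control array 3. These were 25% and 12.5% of the list, against 6.92% and 6.43% of all genes. None of the 8 lay below the median of clusters, and Pdgfra had no single-symbol cluster. Dcn, Dpt and Lum are matrix genes that also count in the list of proteins that organise fibrils. The marker mean therefore cannot separate fibroblast content from expression of matrix genes. With this mean as a covariate, an alternative chosen after the data were seen, Col1a1 was -1.54 with oxazolone (limma adjusted p = 0.111) and -2.13 with urushiol (adjusted p = 0.0376). Col1a2 was -1.64 (adjusted p = 0.0344) and -1.80 (adjusted p = 0.0176), and Col12a1 was 5.00 (adjusted p = 0.0133) and 3.94 (adjusted p = 0.0157). Col15a1 with oxazolone was -0.65 in that fit (adjusted p = 0.0732), and Col4a3 lost its call with both allergens at -0.28 and -0.27 (adjusted p = 0.0945 and 0.0784), beside -0.30 and -0.28 in the fit without the covariate. The Col6a6 call with oxazolone was lost as well, at -0.54 (adjusted p = 0.13) beside -0.65.

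Markers of other cell types differed as well. Counts in these lists stand beside 6.92% of all genes lower and 9.63% higher with oxazolone, and 6.43% and 9.96% with urushiol. All 9 skeletal muscle markers were lower with each allergen, and their mean ran from 16.03 to 18.17 in control, 7.03 to 9.36 in oxazolone and 11.51 to 12.47 in urushiol skin. Of 7 adipocyte markers, 6 were lower with oxazolone (5 without control array 3) and 5 with urushiol. Their means were 10.94 to 11.72 in control, 9.22 to 9.49 in oxazolone and 9.56 to 10.10 in urushiol skin. Muscle fibres and fat cells carry type IV, VI and XV collagen, and the part of both lists in the calls of Col4a3, Col4a5, Col4a6, Col15a1 and Col6a6 was not tested. The 6 chondrocyte markers all lay below the median of clusters, with means of 4.81 to 4.96 on all arrays. Of 6 endothelial markers 1 was lower with oxazolone and 0 with urushiol, or 1 with each when control array 3 was left out. Of 6 basal keratinocyte markers 2 were higher and 1 lower with each allergen, and with that array left out 3 were higher with oxazolone and 4 with urushiol. Of 5 leukocyte markers 1 was higher and 1 lower with each allergen, and of 3 measured Schwann cell markers 1 was lower with each. Leaving out control array 3 gave 1 higher and 2 lower leukocyte markers with oxazolone, and 0 and 1 with urushiol. None of the 7 hair follicle markers was called with either allergen, and 7 and 4 were higher when control array 3 was left out.

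The genes that process collagen chains inside the cell did not share a direction. Of 19 measured, 4 were higher (21.1%) and 3 lower (15.8%) with oxazolone, and 3 were higher (15.8%) and 0 lower with urushiol (median -0.22 and -0.01). Without control array 3, 2 were lower with each allergen. Over all genes 9.63% were higher and 6.92% lower with oxazolone, and 9.96% and 6.43% with urushiol. P4hb, a subunit of prolyl hydroxylase and a general protein folding enzyme, rose by 0.96 ± 0.18 (limma adjusted p = 0.0171) and 1.60 ± 0.18 (adjusted p = 0.00301). Its oxazolone call ended without control array 1 or 2 or oxazolone array 1 or 3 (adjusted p up to 0.0625). Ppib, a folding enzyme for procollagen and other secreted proteins, rose by 1.04 ± 0.23 (adjusted p = 0.0265) and 1.20 ± 0.23 (adjusted p = 0.0167). The Ppib call with oxazolone ended without control array 1 or 2, any oxazolone array or urushiol array 3 (up to 0.0832), and with urushiol without urushiol array 1 or 3 (up to 0.0589). Creb3l1, a transcription factor that drives type I collagen genes in bone, was lower with oxazolone at -1.31 ± 0.32 (adjusted p = 0.0352), a call that ended without any control array, oxazolone array 2 or 3 or urushiol array 3 (0.0574 to 0.103). It was -0.86 ± 0.32 with urushiol (adjusted p = 0.115). Plod1, a lysyl hydroxylase, was lower with oxazolone at -0.92 ± 0.23 (adjusted p = 0.0371), until control array 1 or 2, oxazolone array 2 or 3, or urushiol array 2 or 3 was left out (0.0598 to 0.117). With urushiol Plod1 was at -0.73 ± 0.23 (adjusted p = 0.0743), and at -0.91 without control array 3 (adjusted p = 0.0284). Serpinh1, the collagen-specific chaperone, stood at 8.56, 8.27 and 8.52 in control, 8.81, 7.86 and 8.28 in oxazolone and 7.88, 8.40 and 7.95 in urushiol skin, at -0.13 ± 0.25 and -0.37 ± 0.25. P4ha1, a catalytic subunit of prolyl hydroxylase, was at -0.45 ± 0.24 and -0.39 ± 0.24, and neither gene passed the test. P4ha3, another catalytic subunit, named after its values were seen, was higher with both allergens. It differed by 0.91 ± 0.21 (adjusted p = 0.0302) and 0.89 ± 0.21 (adjusted p = 0.0318). Its control arrays stood at 5.38, 5.04 and 5.24, below 5.60, the median of all clusters.

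Genes that trim and cross-link secreted procollagen held 3 members that were lower with both allergens, of 11 measured, with 1 higher with oxazolone. The lower calls were 27.3% of the list, against 6.92% and 6.43% of all genes. The higher call was 9.09%, beside 9.63% of all genes. Pcolce2, an enhancer of the protease that removes the C-terminal propeptide, fell, with log2 differences of -2.99 ± 0.32 (limma adjusted p = 0.00243) and -2.81 ± 0.32 (adjusted p = 0.00292). It stood at 11.35, 10.73 and 10.18 in control, 8.18, 7.56 and 7.54 in oxazolone and 8.00, 7.65 and 8.18 in urushiol skin, with no overlap. Pcolce, its relative, fell, with differences of -1.34 ± 0.18 and -1.21 ± 0.18 (adjusted p = 0.00521 and 0.0072). Adamts14, which removes the N-terminal propeptide, fell, with differences of -0.82 ± 0.10 and -0.76 ± 0.10 (adjusted p = 0.00427 and 0.00532). These 3 genes kept their calls in all 9 fits without 1 array. Tll1, a protease of the C-terminal propeptide, was higher with oxazolone at 0.64 ± 0.17 (adjusted p = 0.0411), a call that was kept in 2 of 9 fits without 1 array (those without control array 1 or oxazolone array 3) and reached adjusted p 0.122 in the others. Lox, the cross-linking oxidase, was at -0.26 ± 0.27 and -0.28 ± 0.27 and did not pass the test.

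Of 15 proteins that bind and organise fibrils, 8 were lower with oxazolone and 6 with urushiol, and 0 were higher. The lower calls were 53.3% and 40% of the list, against 6.92% and 6.43% of all genes. Of all genes 9.63% and 9.96% were higher. The list's median was -1.02 and -0.80. Tnxb, tenascin X, which is needed for normal collagen in skin, fell, with differences of -3.08 ± 0.20 (limma adjusted p = 0.000521) and -2.50 ± 0.20 (adjusted p = 0.000922). It stood at 10.66, 10.83 and 10.02 in control, 7.37, 7.32 and 7.58 in oxazolone and 7.87, 8.05 and 8.08 in urushiol skin, far apart from control on every array. Prelp, a small leucine-rich proteoglycan of basement membranes, fell, with differences of -2.01 ± 0.33 and -2.22 ± 0.33 (adjusted p = 0.0101 and 0.00669). Ogn, of the same family, fell by 2.48 ± 0.43 with oxazolone (adjusted p = 0.0118) and was at -1.50 ± 0.43 with urushiol (adjusted p = 0.0539), where it was -1.79 and called without control array 3 (adjusted p = 0.0304). Aebp1, a collagen-binding protein, fell, with differences of -2.04 ± 0.37 and -1.66 ± 0.37 (adjusted p = 0.0137 and 0.0257). Leaving out control array 1 or 2 ended both Aebp1 calls, and leaving out urushiol array 1 or 3 ended that with urushiol, at adjusted p up to 0.0898.

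Of the 6 lists of collagen-related genes, that of collagen breakdown held the widest differences. This list holds proteases together with their inhibitors Timp1, Timp2 and Timp3, so its counts and medians mix both. Of 11 measured, 5 were higher (45.5%) and 2 lower (18.2%) with each allergen (median 1.46 and 1.45). Over all genes 9.63% were higher and 6.92% lower with oxazolone, and 9.96% and 6.43% with urushiol. The urushiol counts were 3 and 1 when control array 3 was left out. Mmp13, an interstitial collagenase, stood at 5.27, 5.74 and 6.62 in control skin, 14.73, 13.23 and 15.32 in oxazolone skin and 14.06, 12.40 and 12.74 in urushiol skin. It rose by 8.55 ± 0.67 (limma adjusted p = 0.000939) and 7.19 ± 0.67 (adjusted p = 0.0014), and no challenged array came near a control. Mmp10, a stromelysin of wounded epidermis, rose by 3.64 ± 0.34 and 3.24 ± 0.34 (adjusted p = 0.00155 and 0.00212). Timp1, an inhibitor of these proteases, rose by 3.77 ± 0.34 and 2.71 ± 0.34 (adjusted p = 0.00143 and 0.00403). Timp2, an inhibitor of the same family, was lower, at -1.86 ± 0.21 and -1.61 ± 0.21 (adjusted p = 0.00286 and 0.00448). The other lower calls were Ctsk with oxazolone (-1.30 ± 0.24, adjusted p = 0.0144) and Timp3 with urushiol (-1.05 ± 0.29, adjusted p = 0.049). Timp2, Ctsk and Timp3 were named after their values were seen. Mmp9, a gelatinase of leukocytes and keratinocytes, rose by 3.15 ± 0.58 and 2.29 ± 0.58 (adjusted p = 0.0144 and 0.0385). Leaving out any control array, oxazolone array 1 or any urushiol array ended the Mmp9 call with urushiol, at adjusted p up to 0.12, and leaving out array 1 of the controls or of oxazolone ended that with oxazolone, at up to 0.054. The calls of Mmp13, Mmp10 and Timp1 held in all 9 fits without 1 array.

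Of 10 collagen receptors, 3 were higher with oxazolone (4 without control array 3) and 2 with urushiol, and 0 were lower. The higher calls were 30% and 20% of the list, beside 9.63% and 9.96% of all genes. Itgb1, the beta chain shared by the collagen-binding integrins and many others, rose by 1.19 ± 0.21 and 0.95 ± 0.21 (limma adjusted p = 0.0134 and 0.0272). Itga2, the alpha chain of a collagen-binding integrin, rose by 1.34 ± 0.23 and 0.82 ± 0.23 (adjusted p = 0.0113 and 0.0497). The Itga2 urushiol call was lost when any 1 of the 9 arrays was left out (adjusted p 0.0518 to 0.143), and that of Itgb1 when control array 1 or 2, oxazolone array 3 or any urushiol array was (up to 0.0907). Lair1, an inhibitory collagen receptor of leukocytes, rose by 0.83 ± 0.16 with oxazolone (adjusted p = 0.0166), a call that ended when control array 2 or oxazolone array 1 was left out (up to 0.0584). It was at 0.43 ± 0.16 with urushiol (adjusted p = 0.112).

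Of 14 genes of TGF-beta signalling and its targets, a pathway that induces collagen genes in fibroblasts, 5 were higher and 2 lower with oxazolone. With urushiol 1 was higher and 3 were lower. The higher calls were 35.7% and 7.14% of the list, beside 9.63% and 9.96% of all genes. The lower calls were 14.3% and 21.4%, beside 6.92% and 6.43%. With control array 3 left out, the counts were 4 higher and 2 lower with oxazolone, and 4 and 4 with urushiol. Postn, periostin, a matrix protein that binds collagen, rose by 2.39 ± 0.32 (limma adjusted p = 0.00486) and 2.67 ± 0.32 (adjusted p = 0.00334), and kept both calls in all 9 fits without 1 array. Tgfb1 rose by 0.89 ± 0.23 with oxazolone (adjusted p = 0.0394) and was at 0.60 ± 0.23 with urushiol (adjusted p = 0.116), where it was 0.81 and called without control array 3 (adjusted p = 0.028). Tgfb2 was at -1.40 ± 0.38 and -1.39 ± 0.38 (adjusted p = 0.0463 and 0.0467), and Tgfbr3, a coreceptor, at -1.18 ± 0.20 and -0.96 ± 0.20 (adjusted p = 0.0109 and 0.0203). The calls of the ligands rested on nearly every array: Tgfb1 lost its call in 7 of 9 fits without 1 array and Tgfb2 in 8 of 9 with each allergen, at adjusted p up to 0.117, 0.129 and 0.144. The Tgfbr3 call with urushiol ended without control array 1 or 2 or urushiol array 1 (up to 0.0693). The whole-array background was sensitive to scaling: with quantile renormalisation 2127 genes were higher and 2937 lower with oxazolone, in place of 2904 and 2085, and 2297 and 2341 with urushiol, in place of 3003 and 1939.

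**Figure D4:**
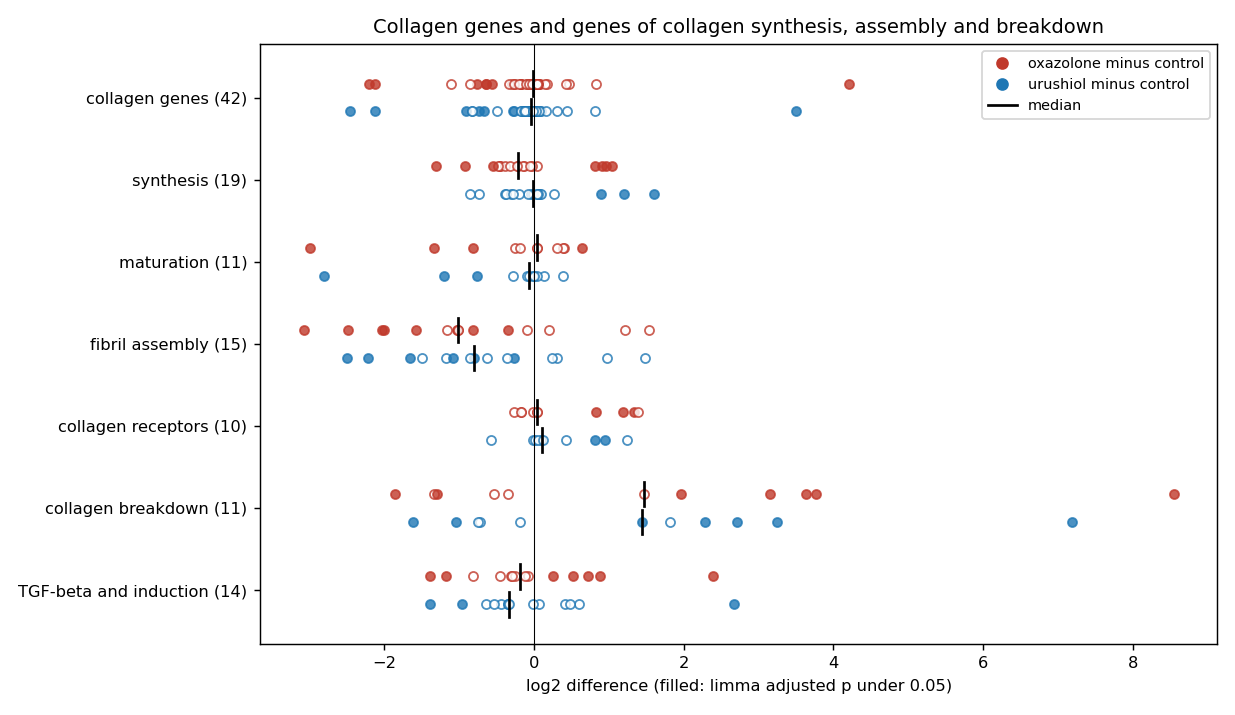
Log2 differences from control (x axis) of the 42 collagen genes and of 6 lists of genes that make, assemble, bind, break down or induce collagen (number measured in brackets), with oxazolone in red and urushiol in blue; filled points had a limma adjusted p under 0.05 and black bars are medians. The fibril assembly list has its median at -1.02 and -0.80 and the breakdown list at 1.46 and 1.45, with Mmp13 at the far right. The breakdown list holds proteases and also their inhibitors Timp1, Timp2 and Timp3.

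The median standard error was 0.0853 over the members and 0.113 over all genes. Of the members, 18 (42.9%) had values equal to 2 decimals on at least 5 of the 9 arrays, against 19.6% of all genes, and none of these 18 was called in a comparison. They include 11 of the 15 members below the median of clusters. With an unadjusted p under 0.05 there were 13 members with oxazolone and 12 with urushiol, beside 10277 and 9695 of all genes.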

How the data were processed

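Total RNA of 9 skin samples was measured on Affymetrix arrays. The authors deposited log2 values for each array and transcript cluster. The submitters' processing notes list Affymetrix Expression Console 1.4, RMA and Transcriptome Analysis Console without saying what each did. The sources used here do not give the genome build behind the values.

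Array controls (6732 of 72688 features) were left out. Of 65956 clusters, 30604 had 1 symbol, which gave 30142 genes by the cluster with the highest mean, and 827 clusters had their symbol updated through a RefSeq table (GRCm38.p6). Array medians lay between 5.53 and 5.64. Groups came from the sample titles. limma 3.58.1 (R 4.3.3; lmFit, eBayes, two-sided) was fitted to all 9 arrays without a block, tested on simulated data, with p-values adjusted over 30142 genes by Benjamini-Hochberg and called under 0.05. With 3 arrays against 3, exact permutation cannot give p under 0.1, so none was run.

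Members and lists were chosen with earlier results of these data known. The rule named the chosen skin collagens, the 2 called members of a class with the largest difference, at most 4 called members of each other list, and Serpinh1, Lox, P4ha1 and Mmp13. Same-numbered oxazolone and urushiol arrays deviated together (correlations 0.201, 0.197 and 0.124), and differently numbered ones were at -0.18 to 0.0214. Same-numbered control and challenged arrays were at -0.232 to 0.337. Control array 3 and oxazolone array 2, with different numbers, reached 0.285, so these correlations do not establish a pairing. The 12 members that shared an array order were picked by that order, so their array ranks carry no information on a pairing. As the correlations do not establish one, the replicate block was an alternative and not a known pairing. Alternatives were leaving out genes below the median of clusters, averaging each gene's clusters, quantile renormalisation, median centring, trended and robust variances, array weights, 2 groups alone, the block, and leaving out each array; a fibroblast covariate was added after the data were seen.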

Additional observations from a re-analysis of the deposited data

How the results depend on the processing

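No member changed direction while called under any alternative. The 15 called collagen results were refitted 281 times in all, and lost the call in 88 of these fits (31.3%). Collagen results not called gained a call 19 times. Calls over all genes moved as well, and their share of lost calls was not computed. Leaving out 1 array gave 974 to 3270 lower and 1102 to 4749 higher with oxazolone, beside 2085 and 2904. With urushiol it gave 863 to 3089 lower and 1326 to 4566 higher, beside 1939 and 3003. Against 7 lower collagen genes with oxazolone, quantile renormalisation gave 11, the replicate block with only the 2 groups 2, the fibroblast covariate 3, and leaving out 1 array 2 to 7. Against 1 higher, array weights gave 2, the replicate block with only the 2 groups 0, and leaving out 1 array 0 to 3. Against 6 lower with urushiol, 2 groups alone gave 2, the replicate block with only the 2 groups 0, and leaving out 1 array 3 to 7. Against 1 higher, array weights gave 2, the 2 groups alone 0, the replicate block 0 with all 9 arrays and 0 with only the 2 groups, and leaving out 1 array 0 to 2. That block with 2 groups left few calls of any kind with urushiol, 1 higher and 4 lower among all 30142 genes. With the replicate block over all 9 arrays the lower calls were 5 with oxazolone and 4 with urushiol, as Col1a1 and Col1a2 lost theirs; of the other named genes it ended the calls of Creb3l1 and Plod1 with oxazolone, of Itga2 and Mmp9 with urushiol and of Tgfb2 with both. Urushiol against oxazolone gave 0 calls of collagen genes under every alternative, the replicate block included. Over all genes some alternatives gave calls in this comparison, such as 49 lower with array weights. For other values that changed, the cause was not tested. The arrays carry no depth, and their number, 3 a group, limits the precision.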
